A study of Mus musculus with 12 samples.

Results

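The untreated baseline of the epithelium labelled as proximal ileal was taken as the 3 libraries whose labelled TCDD dose is 0, out of 12 libraries in the series. Members were chosen by that label alone, and genes were then ranked by the mean of their counts per 1000000 gene counts (CPM), with the counter's summary entries dropped. RNA came from scrapings of the intestinal epithelium of male C57BL/6 mice. All mice were gavaged every 4 days, 7 times in all, starting at an age of 28 days, and tissue was taken at an age of 56 days. The vehicle group received sesame oil, which the 3 other groups of 3 libraries also received as the carrier of 3, 10 or 30 µg/kg TCDD, a chlorinated dioxin that activates the aryl hydrocarbon receptor (AhR). A scraping is not a sorted cell type, so the libraries hold whatever cells came off the gut wall with the epithelium. The labels give no replicate numbers, and the numbers 1 to 3 used here only name the libraries.

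The small intestinal epithelium is a single sheet of cells that is renewed from stem cells in the crypts. Enterocytes on the villi digest sugars, peptides and fats at their brush border and carry the products into the body, goblet cells secrete mucus, Paneth cells secrete antimicrobial peptides, and rare enteroendocrine and tuft cells sense the contents of the gut. Along the length of the gut the work is divided, with lactase, sugar and fat uptake strongest upstream and bile acid and vitamin B12 (cobalamin) recovery strongest in the distal ileum.

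The vehicle libraries held 17890737, 22180274 and 19666223 counts assigned to genes, and the 9 TCDD libraries held 11695887 to 19882816. The vehicle mean exceeded the TCDD mean by 4439370 counts, with a two-sided exact permutation p of 0.0455 (adjusted p = 0.136 over 3 quantities). Of 46078 genes in the files, 16651 had more than 3 counts in each vehicle library and 20848 had no count in any of them. The floor, below which a gene was not taken as seen, was 3 counts, or 0.168, 0.135 and 0.153 CPM in replicates 1, 2 and 3. Intervals and floors cover counting error only. Values with ± are means and SDs over the 3 vehicle libraries unless an SE is named.

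A few genes held much of the sequence. The 2 highest genes took 8.94% ± 0.82 (SD, n = 3) of all gene counts, the first 10 took 16.8% ± 0.97, the first 50 took 30.3% ± 0.79 and the first 1000 took 65.1% ± 0.56. There were 102 genes above 1000 mean CPM, 1791 above 100 and 13898 above 1. Both genes at the head of the ranking lie in 1 short stretch of chromosome 17, where the first overlaps a gene annotated as ribosomal RNA (rRNA) and the second ends 11 bases before it. Gm42418, annotated as a long intergenic noncoding RNA at chr17:39846958-39848788 on the plus strand (GRCm38), stood at 56841, 49296 and 52576 CPM in vehicle replicates 1, 2 and 3. Gm26917, the noncoding gene directly upstream at chr17:39843013-39846341 on the same strand, stood at 36035, 30717 and 42638 CPM. The third gene of the stretch is CT010467.1 at chr17:39846353-39848827 on the minus strand, whose class is rRNA and which had 6386, 6168 and 8699.6 CPM. Together the 3 genes took 9.93, 8.62 and 10.4% of gene counts. The first 1244 bases of the Gm42418 transcript are, base for base, the reverse complement of a run in the CT010467.1 transcript. RefSeq (GRCm38.p6) places the 18S rRNA gene Rn18s-rs5 at chr17:39846354-39848202, which overlaps both. The opening 80 bases of that shared run, chr17:39846958-39847037 on the plus strand in the GENCODE M21 transcript, are printed because the gene with the most counts in the baseline carries them.
Gm42418 bases 1 to 80: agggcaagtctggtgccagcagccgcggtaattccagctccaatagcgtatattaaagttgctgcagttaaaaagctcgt
The strand setting of the counting is not given in the sources used here, so reads from Gm42418 and from CT010467.1 on the opposite strand cannot be told apart. Gm26917 has no annotated gene on the other strand. How the libraries were depleted of rRNA, if at all, is likewise not given.

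Of the 20 nuclear protein-coding genes with the highest mean CPM, 17 belonged to a function list or to the goblet or general epithelial list. The function lists range from digestion, transport and barrier to clock and stress genes. All were chosen with earlier results of these data known, so the count only describes the ranking. Anpep (chr7:79821803-79861059, minus strand), the aminopeptidase N of the brush border that trims peptides, had 10292, 13457 and 12501 CPM. Apob (chr12:7977648-8016835, plus strand), the structural protein of the chylomicrons that carry absorbed fat, had 15359.8, 10855 and 9214 CPM. Mgam (chr6:40628831-40769123, plus strand), the maltase-glucoamylase that finishes starch digestion, had 8254, 13361 and 13086 CPM. These 3 genes had the highest mean CPM of all nuclear protein-coding genes, and their order by reads differed between libraries, with Apob first in replicate 1, Anpep in replicate 2 and Mgam in replicate 3. Fcgbp, a goblet cell mucus protein, followed at 8409 ± 1155 CPM. Sis, the sucrase-isomaltase, and Slc5a1, the sodium-coupled glucose transporter SGLT1, had 6656 ± 2169.9 and 4612 ± 1819.9 CPM, and replicate 1 had the lowest value of both. The apolipoproteins Apoa1 and Apoa4 had 5841 ± 542 and 5659 ± 1005 CPM. Pigr, the receptor that carries immunoglobulin A across the epithelium, had 4622, 4072 and 4418 CPM and varied little. Others among the 20 highest were Actb at 6433 ± 1086 CPM and Lars2, annotated as the mitochondrial leucyl-tRNA synthetase, at 5618 ± 405 CPM. Lars2 had 6037, 5229 and 5589 CPM, with the libraries in the same order as for Gm42418. Whether its reads come from the synthetase messenger RNA was not tested. The nuclear noncoding RNA Malat1 had 8197 ± 957 CPM and the processed transcript Gm43305 had 4498 ± 927 CPM. The mitochondrial transcripts mt-Co1, a subunit of cytochrome oxidase, and mt-Rnr2, the large mitochondrial rRNA, had 10716 ± 1247 and 6909 ± 1564 CPM. The gene in position 7, ENSMUSG00000089855, had 10306.6, 6619.8 and 8628 CPM and is not in the annotation used here, so no name or class is given for it.

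**Figure D1:**
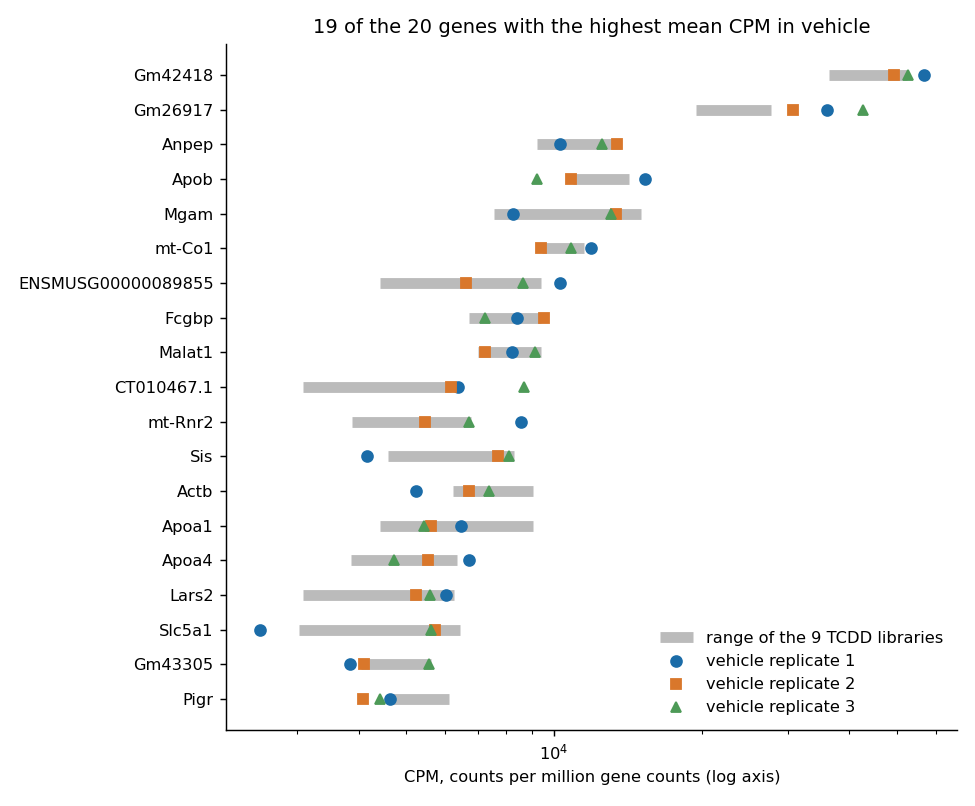
CPM (log axis) of 19 of the 20 genes with the highest mean in vehicle, with 1 symbol per vehicle replicate and a grey bar over the range of the 9 TCDD libraries. Gm42418 and Gm26917 stand apart at the top, and replicate 1 is the lowest vehicle library for Mgam, Sis and Slc5a1 and the highest for Apob.

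CPM counts reads and so favours long transcripts. On the second scale used, counts per kilobase of exon scaled to the same total as CPM in each library (the per-length level), 35 of the 50 highest genes by CPM were also among the 50 highest, and the median exon length of the top 50 fell from 3714 to 1878 nucleotides. Among genes of at least 300 nucleotides of exon, Gm42418 stayed first on the per-length scale at 85414 ± 5089, followed by Rpph1 at 35519.9 ± 1696 and Gm26917 at 32388 ± 5261. Among nuclear protein-coding genes the per-length order was led by Apoa1 at 13969.8 ± 1142, Reg3b at 10731 ± 3609.7, Apoa4 at 9212 ± 1547 and Anpep at 8653 ± 1259. Fabp2, the intestinal fatty acid binding protein, came next at a per-length level of 7299 ± 745. Reg3b encodes a lectin that acts against gut bacteria, and its spread between libraries was so wide that its place between Apoa1 and Apoa4 does not hold beyond the SD. The differences in per-length level between Apoa4 and Anpep, and between Fabp2 and Actb at 7111 ± 1262, were also smaller than their SDs. No ribosomal protein gene was among the 20 highest nuclear protein-coding genes per length. The 80 cytosolic ribosomal protein genes together took 0.421, 0.452 and 0.426% of gene counts.

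By RNA class, nuclear protein-coding genes took 81.4, 84.3 and 81.3% of gene counts in replicates 1, 2 and 3, and 13595 of 21583 such genes were detected. The mitochondrial genome took 3.91, 2.87 and 3.33%, other long noncoding genes 1.92, 1.81 and 2.20%, and small RNA genes outside the mitochondrion 0.848, 0.751 and 0.783%. Immunoglobulin genes were lowest in replicate 1 at 0.138%, with 0.206% in replicate 2 and 0.277% in replicate 3, while T cell receptor genes took 0.00501, 0.00521 and 0.00521%. Genes outside the annotation took 1.09, 0.726 and 0.928%. The share of the chromosome 17 rRNA stretch, given above, was the single class whose vehicle range did not overlap the 9 TCDD libraries, which lay between 5.89 and 8.10%. Leaving out the 10 highest genes raised the protein-coding share from a mean of 82.3% to 93.7%.

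**Figure D2:**
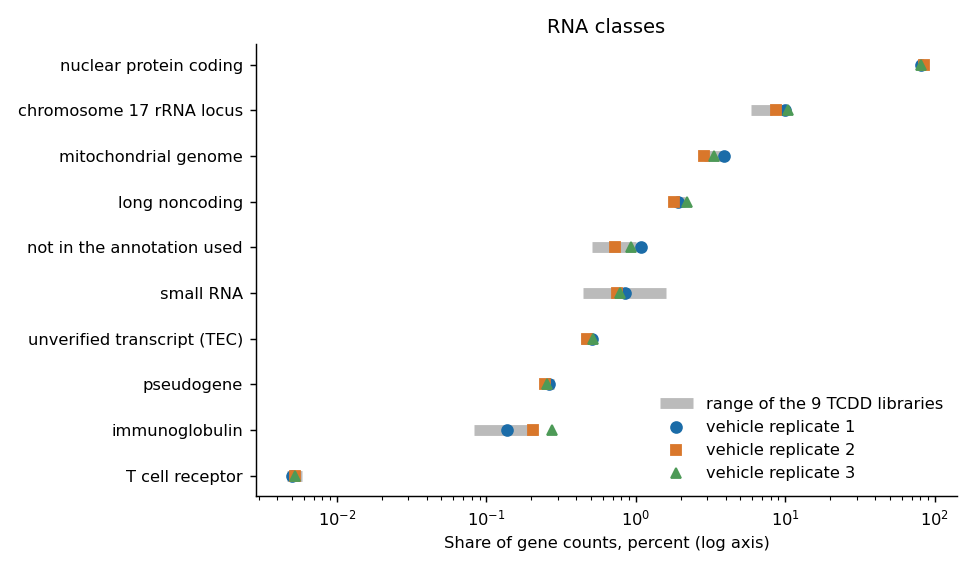
Share of gene counts (percent, log axis) by RNA class, with 1 symbol per vehicle replicate and a grey bar over the range of the 9 TCDD libraries. The 3 genes of the chromosome 17 rRNA locus lie above the TCDD range in all vehicle libraries, and immunoglobulin genes spread from 0.138 to 0.277%.

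A few genes held most of the reads in the ribozyme, small nuclear RNA and microRNA classes. Rpph1, the RNA component of RNase P that trims transfer RNA precursors, had 4092, 3656 and 3750.1 CPM, and with the related Rmrp at 539, 436 and 453 CPM it held nearly the whole of the ribozyme class. Rpph1 ranged over 1479 to 1929 CPM in the 3 µg/kg group, 1864 to 2051 CPM in the 10 µg/kg group and 9349 to 11298 CPM in the 30 µg/kg group, so that the vehicle values fell between the dose groups. Among small nuclear RNAs, 3 genes held 94.6% of the counts, led by Gm25939 with 1238, 978 and 1042 CPM, followed by Gm22513 with 148 ± 24.7 CPM and Gm22973 with 46.3 ± 5.74 CPM. Rn7sk, the 7SK RNA that holds back transcription elongation, had 114, 106 and 93.1 CPM, and the vault RNA Vaultrc5 had 75.1, 38.8 and 36.5 CPM, highest in replicate 1. Scarna2, a guide RNA of the Cajal body, had 119.9 ± 6.57 CPM.
The opening 120 of the 319 bases of the RNase P RNA (GENCODE M21, chr14:50807449-50807767, minus strand) are printed, since per length it was second among genes of at least 300 nucleotides of exon.
Rpph1 bases 1 to 120: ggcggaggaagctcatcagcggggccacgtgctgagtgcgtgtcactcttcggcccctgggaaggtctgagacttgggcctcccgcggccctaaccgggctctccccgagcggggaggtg
Gm25939 (chr1:72255008-72255198, plus strand) and Gm22973 (chr12:59040335-59040525, plus strand) are copies of 191 bases that open with the sequence of U2, the spliceosomal RNA that pairs with the intron branch point. They are printed because they are 95.3% identical, with the 9 bases that differ in capitals, so short reads from one may fit the other.
Gm25939: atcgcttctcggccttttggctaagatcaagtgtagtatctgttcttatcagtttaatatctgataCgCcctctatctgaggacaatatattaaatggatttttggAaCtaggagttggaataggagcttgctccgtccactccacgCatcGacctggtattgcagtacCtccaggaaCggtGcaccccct
Gm22973: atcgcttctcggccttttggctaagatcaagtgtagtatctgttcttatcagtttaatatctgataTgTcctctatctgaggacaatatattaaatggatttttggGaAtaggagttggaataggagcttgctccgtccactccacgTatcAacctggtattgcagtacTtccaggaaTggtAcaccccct
Of the genes annotated as microRNA, 3 held 93.6% of the counts, with Gm23935 at 774, 883 and 892 CPM, Mir6240 at 369, 333 and 358 CPM and Mir6236 at 288, 277 and 271 CPM. The mature sequences of the named pair are given from RefSeq (GRCm38.p6) with the seed, bases 2 to 8, in capitals.
mmu-miR-6240 (chr5:114851973-114851998, plus strand): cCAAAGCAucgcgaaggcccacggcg
mmu-miR-6236 (chr9:110281353-110281371, plus strand): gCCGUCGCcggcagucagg
The seeds differ. Counts on these genes do not separate a mature microRNA from longer RNA over the same bases, and Gm23935 has an annotated gene on the other strand.

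The labelled segment was set beside regional markers, and the defining markers of the distal ileum were at or near 0. Fabp6, the ileal bile acid binding protein, had 1, 2 and 1 counts in vehicle replicates 1, 2 and 3, or 0.0559, 0.0902 and 0.0508 CPM, each under the floor of 3 counts. Fgf15, the hormone that the ileum releases in response to bile acids, had 0.0559, 0.135 and 0 CPM, at or under the floor. Slc10a2, the bile acid importer of the ileum, was low at 0.447, 2.16 and 2.59 CPM. In the rest of the series Fabp6 was at 35, 34.7 and 24.3 CPM in the 3 libraries of the 3 µg/kg group and at most 0.318 CPM in the other 6 TCDD libraries, and Fgf15 reached 1.5 to 2 CPM at 3 µg/kg with no count at 10 or 30 µg/kg. Genes that work in the ileum without being confined to it were well represented. Cubn, the receptor for the vitamin B12 and intrinsic factor complex, had 1099, 1414 and 1146 CPM, its partner Amn had 96, 113 and 109 CPM, and the bile acid exporter subunits Slc51a and Slc51b had 126, 147 and 127 and 98.5, 54.5 and 58.5 CPM.

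Markers of the upper small intestine were split. Lct, the lactase of the brush border, had 3310.3, 3103 and 3144 CPM, and Gata4, a transcription factor of the jejunum and duodenum, had 165, 164 and 149 CPM. Both varied little between libraries. Duodenal markers were low, with Pdx1 at 0.391, 0.316 and 0.356 CPM, the iron reductase Cybrd1 at 1.45, 1.8 and 3.25 CPM and the iron exporter Slc40a1 at 8.38, 8.39 and 6.46 CPM. Of the colon list, Car1, a colonic carbonic anhydrase, had 0 counts in each vehicle library, which allows at most 0.168, 0.135 and 0.153 CPM. Car1 was also at 0 in the 3 and 30 µg/kg groups and stood at 45.4 to 62.5 CPM at 10 µg/kg. With Fabp6 under the floor, Fgf15 at or under it and Lct, Gata4 and Cubn present, the libraries are described here by their dose label and these genes and are not called distal ileum. The ileal name used here is that of the labels, and Fabp6 and Fgf15 lend it no support. Both were taken here as markers of the distal ileum, so their low values do not decide on a proximal ileal label. The labels give the same tissue for all 12 libraries, and whether the sampled position differed between groups was not tested.

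Cell type lists were summed per library as a description of where the reads came from. In bulk tissue, fewer cells of a type and less RNA per cell cannot be told apart. The general epithelial list (10 genes, all detected) summed to 11073, 12377 and 11541 CPM, led by Vil1, the villin of the microvillus core, at 3199 ± 169.6 CPM, Krt8 at 1767 ± 301 CPM and Krt20, a keratin of mature villus cells, at 1723 ± 87.8 CPM. The proximal enterocyte list summed to 7788, 11566 and 11703 CPM, of which Slc5a1 held 44.6%, and the ileal enterocyte list to 1457, 1753 and 1471 CPM, of which Cubn held 78.2%. The goblet list summed to 14846, 16288 and 12378 CPM, of which Fcgbp held 58.0%. Within it Muc2, the gel-forming mucin, had 3789, 4016 and 3056 CPM, Zg16 had 1236, 1237 and 883 CPM and Clca1 had 848, 881 and 732 CPM, while Retnlb, a goblet cell protein induced by microbes and parasites, was at 0.0559, 0.225 and 0 CPM, near or under the floor. The goblet-directing factors Atoh1 and Spdef had 14.5, 19.4 and 17.2 and 11.2, 12.2 and 14.3 CPM.

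Crypt cells were seen at lower levels. The Paneth list of 15 genes summed to 919, 1219.6 and 780.3 CPM, and the 9 TCDD libraries ranged from 716 to 3652 CPM. Its leading members were Lyz1, the Paneth lysozyme, at 351, 457 and 299 CPM, Itln1 at 166, 208 and 149 CPM and the defensin Defa24 at 165, 235 and 143 CPM, with the caution that defensin genes are near-identical copies among which reads can be split. The stem list summed to 343, 355 and 266 CPM. Its defining gene Lgr5 had 3.47, 4.64 and 3.66 CPM and Olfm4, more widely transcribed in crypt bases, had 81.7, 82.3 and 65.9 CPM. Proliferation genes, all 13 detected, summed to 305, 328 and 350.0 CPM with Mki67 at 113, 114 and 133 CPM.

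Rare epithelial types were detected throughout. Enteroendocrine genes (15 of 15 detected) summed to 234, 232 and 202 CPM, led by the granins Chgb at 60.6 ± 4.09 CPM and Chga at 40.9 ± 1.98 CPM. Among hormones, Gip, which is made by K cells and promotes insulin release, had 37.1, 36.2 and 27.1 CPM, Nts had 21, 17.8 and 14.7 CPM, Sct had 14.3, 14.5 and 11.9 CPM, Sst had 13.8, 13.2 and 9.41 CPM, and Gcg, Cck and Pyy were lower at 5.71 ± 0.278, 6.4 ± 0.317 and 2.31 ± 0.687 CPM. Tuft cell genes summed to 67.1, 57.8 and 53.4 CPM with Trpm5 at 23.4, 14.6 and 10.3 CPM and Dclk1 at 16.6, 16 and 17.3 CPM, and Il25, the tuft cell cytokine, had 0 counts in all vehicle libraries.

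Cells from below or within the epithelium contributed unequally. The T and intraepithelial lymphocyte list summed to 229.9, 252 and 227 CPM, below the 264 to 376 CPM of the TCDD libraries without overlap. None of its 9 tested members was called by edgeR (Gzma had an adjusted p of 0.0526), and their median log2 difference was -0.13. Among the 43 lists, the endoplasmic reticulum chaperone and AhR pathway lists also lay below the TCDD libraries without overlap. Their median log2 differences were -0.32 and -0.77. The T and intraepithelial lymphocyte list was led by the granzymes Gzma, with 42.2% of the sum, at 92.8, 109.7 and 97.3 CPM and Gzmb at 54.1, 46.6 and 38.4 CPM. The co-receptor genes Cd8a and Cd4 had 20.1, 23.9 and 20.9 and 2.68, 4.15 and 5.75 CPM. The B and plasma cell list summed to 1187, 1786 and 2378 CPM, of which Igha, the immunoglobulin A heavy chain, held 65.2%. Myeloid genes summed to 82.4, 103 and 105 CPM with Csf1r at 23.8 ± 2.69 CPM, and the neutrophil genes S100a8 and S100a9 were at 0 in all vehicle libraries except for 1 count of S100a9 in replicate 2. Smooth muscle genes summed to 551, 328 and 360.0 CPM, but 73.2% of that came from Mylk, which epithelium also expresses. Fibroblast genes summed to 106, 119 and 187 CPM and endothelial genes to 22.9, 24.3 and 40.6 CPM. Enteric neuron and glia, pancreatic acinar, adipocyte and erythroid lists were the lowest in sum, with the acinar list at 14.5, 18.3 and 15.2 CPM the highest of the 4. Of the erythroid genes, Hba-a1, Hba-a2 and Hbb-bs were at 0. Globin genes are near-identical copies, and reads that align to several places were not counted, so these zeros are uncertain.

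**Figure D3:**
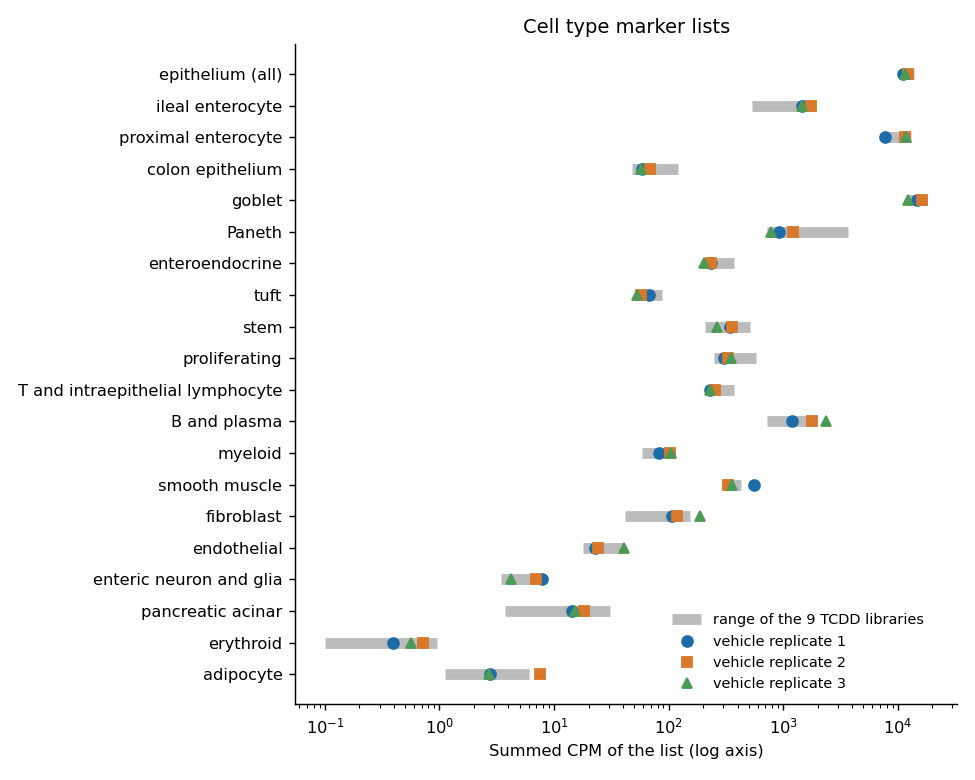
Summed CPM (log axis) of 20 cell type marker lists, with 1 symbol per vehicle replicate and a grey bar over the range of the 9 TCDD libraries. Goblet, general epithelial and proximal enterocyte lists have the highest sums, replicate 1 is highest for smooth muscle, and replicate 3 is highest for B and plasma, fibroblast and endothelial lists.

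The digestive lists give the work of the tissue in reads. Sugar digestion and absorption (9 genes) summed to 20874, 33579 and 33886 CPM, and replicate 1 was lowest for 8 of the 9 genes, beside 4334 of 11606 over all genes with a mean of at least 50 counts. The exit transporter Slc2a2 (GLUT2) had 337, 811 and 915 CPM, the fructose transporter Slc2a5 (GLUT5) 96.1, 284 and 271 CPM and the trehalase Treh 323, 326 and 331 CPM. Treh was nearly even between libraries and Slc2a5 was not. Brush border peptidases (11 genes) summed to 21196, 27427 and 25614 CPM, with Ace at 3272 ± 533 CPM and Enpep at 2217 ± 382 CPM. Tmprss15, the enteropeptidase that activates trypsin in the duodenum, was low at 4.92, 4.06 and 7.98 CPM. Among amino acid and peptide carriers, Slc15a1, the di- and tripeptide transporter PEPT1, led at 1285, 2101 and 1895 CPM, followed by the neutral amino acid transporter Slc6a19 at 1090.3, 1468 and 1324 CPM.

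Fat handling had the highest mean sum of the function lists, at 37587, 32353 and 30122 CPM over 15 genes, though the sugar list exceeded it in replicates 2 and 3. Replicate 1 was the highest library in the sum, through Apob, Apoa1 and Apoa4, yet the lowest for 10 of the 15 genes, to be read beside the same share over all genes. Mttp, which loads lipid onto Apob, had 2684, 2773 and 3075 CPM, Fabp2 2131, 2527 and 2481 CPM, Fabp1 597, 654 and 695 CPM and Dgat2, a triglyceride-forming enzyme, 191, 386 and 505 CPM. Sterol genes summed to 3428, 3419 and 3009 CPM with Npc1l1, the cholesterol importer, at 1975, 1927 and 1593 CPM. The bile acid list summed to 262, 226 and 216 CPM, nearly all of it from Slc51a, Slc51b and the bile acid receptor gene Nr1h4 at 37.2, 21.9 and 27.7 CPM. For vitamin B12, Tcn2, the transcobalamin that carries it in blood, had 387, 378 and 347 CPM beside Cubn and Amn, and Lrp2, the kidney partner of Cubn, had 0.671, 0.135 and 0.254 CPM. Rbp2, the enterocyte retinol binding protein, had 606, 720.0 and 781 CPM, and Bco1, which splits beta-carotene, had 6.48, 14.9 and 36.6 CPM, highest in replicate 3. Heph, the ferroxidase of iron export, had 486, 498 and 481 CPM.

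Barrier and detoxification genes completed the profile. The epithelial defence list summed to 18204, 18456 and 14003 CPM with Pigr, Reg3b at 3855, 5618 and 2942 CPM, Muc13, a transmembrane mucin, at 4697, 2169 and 2175 CPM, Reg3g at 1856, 2609 and 1411 CPM and Dmbt1 at 1428, 2070.3 and 1679 CPM. Replicate 3 was lowest for Reg3b and Reg3g, and replicate 1 stood apart for Muc13. MHC class II genes, all 7 detected, summed to 2328, 3086 and 2192 CPM with Cd74 at 1308, 1768 and 1270.5 CPM. Xenobiotic genes, all 18 detected, summed to 4157, 4124 and 4507 CPM, with Cyp3a13 at 737, 838 and 808 CPM, Cyp3a11 at 939, 479 and 639 CPM and the carboxylesterase Ces2e at 657, 665 and 609 CPM. The AhR target Cyp1a1, silent in many unexposed tissues, had 22.5, 26.8 and 18.4 CPM in vehicle. Hnf4a, a transcription factor of enterocyte identity, led the regional factors at 987, 885 and 712 CPM.

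The 3 vehicle libraries were not equally alike. Over 11606 genes with a mean of at least 50 counts, the median gene's highest and lowest libraries lay 0.29 apart on the log2 CPM scale, and the biological coefficient of variation fitted by edgeR was 0.173. For 623 genes (5.37%) the highest library was over 2-fold above the lowest, and for 116 it was over 4-fold above. Replicate 1 was the lowest library for 388 of the 623 and the highest for 183, and replicate 3 was the highest for 354. Without replicate 1 the share of genes over 2-fold was 1.32% and the coefficient of variation 0.116, without replicate 2 they were 4.37% and 0.212, and without replicate 3 they were 2.64% and 0.177. The spread was wider at low counts, where 13.9% of genes with a mean of 50 to 100 counts were over 2-fold against 2.92% of those with 1000 to 10000. Within the 3 libraries of each TCDD group, from the lowest dose up, the same share was 7.01, 2.98 and 3.26%. Of the 15 genes with the widest fitted ratio, 11 were B cell or antibody genes, 3 belonged to the circadian clock, and the other was the pseudogene Marcksl1-ps4.

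Clock genes separated replicate 1 from the other two vehicle libraries. The circadian clock is a loop in which Arntl and its partners Clock and Npas2 switch on Per, Cry and Nr1d1 genes and the output factors Dbp, Tef and Hlf, whose products shut the loop down or pass the rhythm on, so that Arntl and Dbp peak at opposite times of day. Of 16 listed clock genes, 15 had 50 counts or more, and 13 of the 15 were over 2-fold between the vehicle libraries, beside 5.37% of all genes. Without replicate 1 none of the 15 was over 2-fold, without replicate 2 there were 13 and without replicate 3 there were 12. The clock list was chosen with earlier results of these data known, so these counts only describe it. Dbp (chr7:45705088-45710203, plus strand) had 1.06, 117 and 83.6 CPM, a ratio of highest to lowest of 111 with a 95% counting interval from 70.7 to 184. Per3 had 4.92, 88.6 and 106 CPM, Tef 12.9, 154 and 150.0 CPM, Ciart, a repressor of the loop, 0.279, 8.21 and 8.03 CPM and Nr1d1 59.7, 183 and 128 CPM, each lowest in replicate 1. Arntl ran the other way at 61.6, 5.77 and 7.12 CPM, as did Npas2 at 119, 37.2 and 39.5 CPM and Nfil3, a repressor that competes with Dbp, at 25.2, 2.48 and 2.54 CPM. Clock itself was even at 127, 111 and 116 CPM. Dbp, Arntl and Tef have an annotated gene on the other strand.

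The same split of Dbp and Arntl lay inside the other groups. In replicates 1, 2 and 3 Dbp had 83.1, 3.62 and 1.75 CPM in the 3 µg/kg group, 65.1, 1.17 and 1.02 CPM in the 10 µg/kg group and 45.5, 27.9 and 2.79 CPM in the 30 µg/kg group. Arntl had 5.03, 45.2 and 45.6 CPM, 6.48, 52 and 66.9 CPM, and 7.09, 8.38 and 44.5 CPM in the same order. In all 4 groups the library with the most Dbp had the least Arntl. The study's methods place tissue collection in the opening hours of the light phase, the labels give no collection time for a library, and the cause of the split was not tested.

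Promoters of the clock list were searched for the sequences through which the loop acts, over 300 bases from 250 before to 50 after the start in RefSeq (GRCm38.p6). Of the 16 genes 15 matched, with 20 promoters, and Per2 had no entry. The E-box CACGTG was in 6 of the 20 promoters, from 5 genes (Bhlhe41, Ciart, Cry1, Per1 and Tef), and in 7.15% of all 32851 promoters. The D-box, searched as TTATGTAA, TTACATAA or TTACGTAA on both strands, was in 1 of the 20 promoters, that of Per3, and in 1.06% of all promoters. The CACGTG motif reads the same on both strands, and the D-box words do not overlap it. Per3 and Ciart are printed with the motifs in capitals, as the clock genes beside Dbp with the widest ratio between vehicle libraries.
Per3 promoter (chr4:151044616-151044915, minus strand): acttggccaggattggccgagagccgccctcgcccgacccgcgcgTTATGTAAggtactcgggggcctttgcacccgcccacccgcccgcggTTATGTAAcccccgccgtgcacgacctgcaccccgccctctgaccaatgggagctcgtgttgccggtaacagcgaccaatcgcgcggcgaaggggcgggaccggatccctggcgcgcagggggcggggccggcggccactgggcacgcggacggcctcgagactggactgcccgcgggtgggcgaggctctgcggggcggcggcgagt
Ciart promoter (chr3:95882179-95882478, minus strand): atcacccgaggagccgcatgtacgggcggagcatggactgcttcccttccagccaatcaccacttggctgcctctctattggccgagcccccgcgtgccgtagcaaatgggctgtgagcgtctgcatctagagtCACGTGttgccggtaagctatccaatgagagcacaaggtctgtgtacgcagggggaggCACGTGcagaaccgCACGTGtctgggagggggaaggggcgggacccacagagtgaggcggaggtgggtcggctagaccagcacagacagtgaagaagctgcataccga
A match describes these letters and is not evidence of binding.

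Transport and defence genes differed between the same libraries. Slc34a2, Slc9a3, Nos2 and Abcb1a were chosen after their values were seen. Slc34a2, the phosphate transporter, had 1604, 192 and 177 CPM, and Slc9a3, the sodium-proton exchanger NHE3, had 455, 135 and 153 CPM, both highest in replicate 1, as was Nos2, the inducible nitric oxide synthase, at 378, 122 and 135 CPM. Abcb1a, the drug exporter P-glycoprotein, ran the other way at 109, 523 and 590.1 CPM. Of the 9 sugar genes 4 were over 2-fold (Sis, Slc5a1, Slc2a2 and Slc2a5), of 10 phosphatase and ion transport genes 4, and of 11 defence genes 5, beside 5.37% of all genes. Without replicate 1 the count was 0 in each of the 3 lists, where 1.32% of all genes were over 2-fold. These lists, like the others here, were chosen with earlier results of these data known. The counts therefore only describe the lists. In the other groups Slc34a2 was at 228, 1320.4 and 1519.5 CPM (3 µg/kg group), 215, 1870.3 and 1602 CPM (10 µg/kg group), and 494, 662 and 1582 CPM (30 µg/kg group). The library with the most Dbp in each group was the library with the least Slc34a2 in the 3, 10 and 30 µg/kg groups, and in vehicle the least Slc34a2 was in replicate 3, which had the second most Dbp. Slc34a2 has an annotated gene on the other strand.

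Genes of cells outside the epithelium also differed between the vehicle libraries. Pax5, a transcription factor that keeps B cell identity, had 0, 5.14 and 16.2 CPM. Cr2, a complement receptor of B cells, had 0, 2.48 and 11.4 CPM. Ebf1, an early B cell factor also found in stroma, had 0.224, 4.42 and 10.7 CPM. All 3 were highest in replicate 3 and at or near the floor in replicate 1, where Pax5 and Cr2 had 0 counts and were thus at least 96.4-fold and 68.2-fold higher in replicate 3 (against 3 counts in replicate 1). Ighd, the heavy chain of resting B cells, had 0.224, 3.97 and 16 CPM and Ighg2b, a switched heavy chain, 1.29, 10.6 and 37 CPM. Igha, from plasma cells, moved less at 829, 1166 and 1494 CPM, and Jchain, which links immunoglobulin A, had 101, 152 and 249 CPM. All 9 B and plasma list members with 50 counts or more were highest in replicate 3 and lowest in replicate 1, and 8 were over 2-fold, or 4 without replicate 1. Variable segments such as Igkv14-126 (2.68, 0 and 11.8 CPM), Ighv3-4 (0.503, 0.135 and 8.9 CPM), Igkv4-63 (0.279, 0.676 and 9.86 CPM), Igkv9-124 (0.279, 9.06 and 1.58 CPM) and Igkv1-133 (0.95, 8.7 and 0.305 CPM) differed in which library they favoured, and reads of such near-copies can be assigned to the wrong one.

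Muscle genes were highest in replicate 1. Myh11, smooth muscle myosin, had 91.7, 24.7 and 35.7 CPM, Acta2 28.2, 7.26 and 9.51 CPM, Des 27.1, 8.97 and 11.9 CPM and Actg2 12.9, 3.02 and 4.68 CPM. All 8 smooth muscle genes with 50 counts or more were highest in replicate 1, and 7 were over 2-fold, or 1 without replicate 1. All 8 stand beside 4656 of 11606 genes that were highest in replicate 1. Of fibroblast genes 7 of 7 were lowest in replicate 1, beside 4334 of 11606 over all genes, with Col3a1 at 27.9, 31.2 and 52 CPM and Col1a1 at 15.2, 16 and 27.8 CPM. The part of muscle, B cells or connective tissue in the clock and transport differences was not tested. The general epithelial list stayed within 11073 to 12377 CPM in the same libraries.

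**Figure D4:**
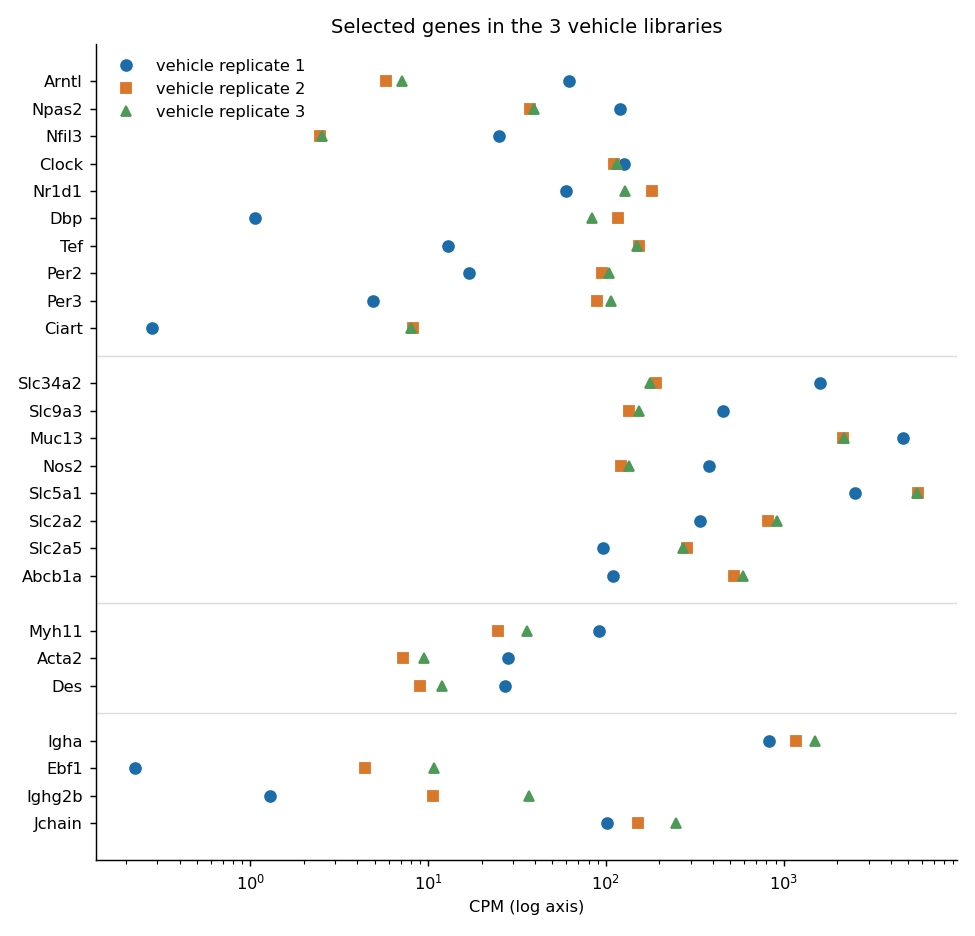
CPM (log axis) in the 3 vehicle libraries for 4 sets of genes separated by grey lines, namely clock genes, transport and defence genes, smooth muscle genes, and B cell and antibody genes. Replicate 1 lies apart in the first 3 sets except for Clock, and the plotted genes of the last set, Igha, Ebf1, Ighg2b and Jchain, are lowest in replicate 1 and highest in replicate 3.

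To show where the baseline differs from the rest of the series, vehicle was compared with the mean of the 3 TCDD groups in the edgeR quasi-likelihood test over all 12 libraries. Of 15823 genes tested 146 (0.923%) passed an edgeR adjusted p of 0.05 with a change of 1.5-fold, 48 (0.303%) higher and 98 (0.619%) lower in vehicle, and 2729 had an unadjusted p under 0.05. Vehicle and TCDD values did not overlap for 404 genes tested (2.55%) and for 76 of the 146. Of the 50 highest genes 2 were called, CT010467.1 and Gm26917. Of the 365 list genes tested 13 were called, and 36 of the 43 lists held no called member. The count depended on the fit and on single libraries. With the 9 TCDD libraries fitted as 1 group 2 genes were called, and the 20 genes named from this contrast all lost their call. Without vehicle replicate 2 or without vehicle replicate 3 the edgeR call fell to 59 genes, without TCDD 3 µg/kg replicate 1 it was 351, and without vehicle replicate 1 it was 172, of which 101 were higher in vehicle.

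Of the 98 genes lower in vehicle 85 were protein coding, to be read beside 13595 nuclear protein-coding genes among the 16651 detected in vehicle. Of the same 98, 4 belonged to the AhR pathway list. Cyp1a1, a monooxygenase that is the standard readout of AhR activation, had 22.5, 26.8 and 18.4 CPM in vehicle, 23.6 to 129 CPM in the 3 µg/kg group and 2656 to 3128 CPM in the 30 µg/kg group. Its difference of vehicle from TCDD was -4.77 ± 0.49 (SE) on the log2 scale (edgeR adjusted p = 0.000559). Cyp1b1, another such enzyme, had 1.34, 2.57 and 2.54 CPM in vehicle and 2.89 to 112 CPM over the TCDD libraries, a difference of -3.61 ± 0.20 (SE) on the log2 scale (edgeR adjusted p = 3.93e-06). Ahrr, the repressor of the receptor, had 2.46, 4.15 and 3.92 CPM in vehicle, a difference of -2.32 ± 0.19 (SE) on the log2 scale (edgeR adjusted p = 0.000114). Values at 3 µg/kg overlapped vehicle for Cyp1a1 and Ahrr. Of 7 AhR pathway genes tested, Cyp1a1, Cyp1b1, Ahrr and Tiparp were lower and Cyp1a2 higher in vehicle, beside 0.619% and 0.303% of all genes. Cyp1a2 is liver-typical and was low but above the floor in vehicle, with 1.12, 2.25 and 0.763 CPM. It had no count at 3 µg/kg and 1.36 to 1.84 CPM at 30 µg/kg, so its call does not describe the 30 µg/kg group.

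Other genes lower in vehicle included Mt2, a metal-binding metallothionein, at 62.5, 44 and 49.6 CPM against 76.8 to 347 CPM over the TCDD libraries, a difference of -1.91 ± 0.26 (SE) on the log2 scale (edgeR adjusted p = 0.00357). Ildr1, a protein of tricellular junctions, had 3.97, 3.2 and 2.08 CPM in vehicle, a difference of -2.45 ± 0.17 (SE) on the log2 scale (edgeR adjusted p = 3.73e-05). Acta1, the skeletal muscle actin, had 5.2, 2.25 and 1.93 CPM in vehicle and its reads can be shared with other actin genes. Its 3 µg/kg values of 4.89, 4.99 and 3.62 CPM overlapped vehicle. At 10 µg/kg it had 26 to 42.9 CPM and at 30 µg/kg 78.4 to 190 CPM. Dgkh, a diacylglycerol kinase, had 3.41, 5 and 6.36 CPM and the pseudogene Gm15500 4.36, 5.27 and 4.83 CPM, both without overlap with the TCDD libraries. Apobec2 was called at an edgeR adjusted p of 0.0491 in the full set and in 6 of 18 alternatives. Fabp6 was called lower in vehicle, at -3.46 ± 0.64 (SE) on the log2 scale (edgeR adjusted p = 0.0198), but this rests on the 3 µg/kg group alone, given above, since the 10 and 30 µg/kg libraries were at 0 to 0.318 CPM. The call was lost without vehicle replicate 2 (-3.75), vehicle replicate 3 (-3.32), or 30 µg/kg replicate 2 (-3.27) or 3 (-3.37). In the Paneth list Ang4, an antimicrobial ribonuclease, at 34.3, 45.1 and 27.4 CPM, and Mptx2 at 32.5, 42.4 and 31 CPM were called lower in vehicle, and the median log2 difference of its 14 tested genes was -0.80 beside 0.01 over all genes. Mt2, Acta1, Dgkh, Apobec2 and Tiparp have an annotated gene on the other strand.

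Of the 48 genes higher in vehicle 22 were protein coding, 7 immunoglobulin and 7 small RNA genes. Nuclear protein-coding genes were 13595 of the 16651 genes detected in vehicle. Akp3, a duodenal-type alkaline phosphatase, had 23.6, 25 and 18.7 CPM in vehicle and 0.551 to 9.3 CPM over the TCDD libraries with no overlap, a difference of 3.15 ± 0.54 (SE) on the log2 scale (edgeR adjusted p = 0.0138). Its relative Alpi, at 912, 946 and 827 CPM, was not called. Ighg2b differed by 3.23 ± 0.61 (SE) on the log2 scale (edgeR adjusted p = 0.0216). Ighv1-12, with 1.73, 15.1 and 6.86 CPM in vehicle, differed by 2.74 ± 0.53 (SE) on the log2 scale (edgeR adjusted p = 0.0233). Both overlapped the TCDD range through vehicle replicate 1, in which Pax5, Cr2 and Ebf1 were also lowest. Ighg2b lost its call without vehicle replicate 2 (3.46), vehicle replicate 3 (1.77) or 30 µg/kg replicate 1 (3.33), and with the sequencing index as a covariate (2.99). Akp3 lost it without vehicle replicate 2 (3.06) or 3 (3.26). Ighv1-12 lost it without vehicle replicate 2 (1.85) or 3 (2.83), 10 µg/kg replicate 3 (2.64) or 30 µg/kg replicate 1 (2.66). Ighv1-19 had 10.8, 11.7 and 5.24 CPM with no overlap, and Ighv1-15 had 6.43, 17.1 and 23.4 CPM with overlap and was called in 12 of 19 alternatives. Of 139 immunoglobulin genes tested 7 were higher in vehicle, beside 0.303% of all genes. Of 191 small RNA genes tested 7 were higher and 3 lower, beside 0.303% and 0.619% of all genes, among them the small nucleolar RNA Gm25776 at 19.7, 9.24 and 9.25 CPM (edgeR adjusted p = 0.000937). Vaultrc5 differed by 1.34 ± 0.21 (SE) on the log2 scale (edgeR adjusted p = 0.00905). Rn7sk was higher in vehicle without overlap, by 0.83 ± 0.12 (SE) on the log2 scale (edgeR adjusted p = 0.00381). Rnu12, the U12 RNA of the minor spliceosome, had 18.7, 9.02 and 18.2 CPM and was called in 9 of 19 alternatives. In the 30 µg/kg group Gm25776 (10.1 to 17.3 CPM) and Vaultrc5 (49.5 to 66.2 CPM) lay at the level of vehicle, so the difference lies in the 3 and 10 µg/kg groups. Prr5l, at 5.14, 8.7 and 7.02 CPM, and the antisense gene Gm10680, at 34.8, 50.6 and 44.8 CPM, were also among the 10 largest rises of called genes with a mean of at least 50 counts over the 12 libraries and have an annotated gene on the other strand. Both lost their call without vehicle replicate 2, at 1.27 and 1.13.

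The pancreatic acinar list was a trace, and its sum in vehicle lay inside the TCDD range of 3.72 to 30.7 CPM. Its leading member Clps, the colipase, held 44.7% of the sum at 6.82, 9.11 and 5.54 CPM against 3.03 to 28.4 CPM, and was not called (edgeR adjusted p = 0.213). Of its 14 genes 5 were tested and 3 were called, all higher in vehicle, beside 0.303% of all genes. Pnlip and Cela2a passed the filter on low counts through vehicle alone, so the direction of their calls was favoured in advance. The count of calls is therefore not read as a result about the list. Pnlip, the pancreatic lipase, had 1.12, 1.26 and 1.17 CPM in vehicle and at most 0.508 CPM in any TCDD library, Ctrb1, a chymotrypsinogen, had 1.9, 2.61 and 2.39 CPM against at most 0.89 CPM, and Cela2a, an elastase, had 0.727, 1.17 and 0.915 CPM against at most 0.364 CPM. The edgeR adjusted p was 0.00234, 0.00234 and 0.00357 for the 3 genes, and Cela2a has an annotated gene on the other strand. The part of sampled position or of adhering tissue in these traces was not tested. Of the chromosome 17 rRNA stretch, CT010467.1 was higher in vehicle by 0.82 ± 0.13 (SE) on the log2 scale (edgeR adjusted p = 0.00756) and Gm26917 by 0.68 ± 0.14 (SE) on the log2 scale (edgeR adjusted p = 0.0309), both without overlap and called in 17 and 10 of 19 alternatives, while their neighbour Gm42418 did not pass (edgeR adjusted p = 0.361). The share of aligned entries that matched several places was 34.6, 32.5 and 34.4% in vehicle and did not separate the groups (mean difference of -0.389 percentage points, exact permutation p = 0.845, the same after adjustment), nor did the share matching no gene (29.4, 29.4 and 29.4% in vehicle, difference 1.51 points, exact permutation p = 0.345, adjusted p = 0.518).

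**Figure D5:**
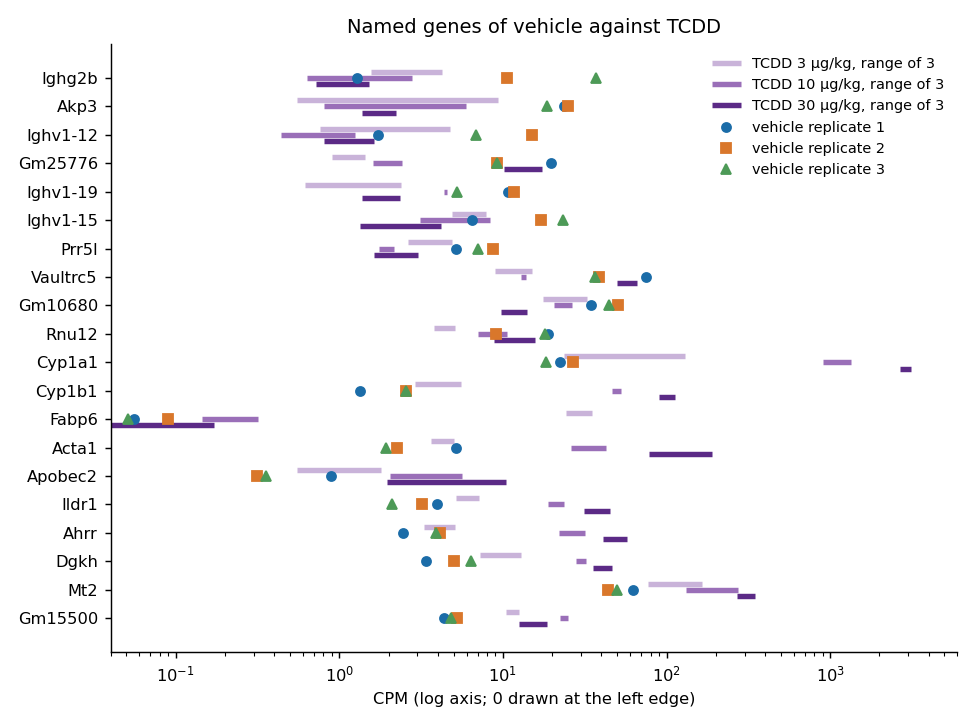
CPM (log axis) of the 10 genes most raised and the 10 most lowered in vehicle against TCDD among genes called with a mean of at least 50 counts over the 12 libraries, with 1 symbol per vehicle replicate and bars over the range of the 3 libraries at each dose. Cyp1a1 and Cyp1b1 climb with dose, Fabp6 is above 1 CPM at 3 µg/kg alone, and Vaultrc5 and Gm25776 at 30 µg/kg lie beside vehicle.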

How the data were processed

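RNA-seq counts per gene were analysed in 12 libraries of scraped epithelium labelled as ileal, 3 of them vehicle. The submitters' processing notes name FastQC 0.11.3, Trimmomatic 0.33, TopHat2 2.1.0, SAMtools 1.2.0, HTSeq 0.6.1 and DESeq with the GRCm38 build, and the authors deposited raw HTSeq counts per gene and library. The annotation release and the strand setting are not given in the sources used here. Entries that name no gene were left out. In vehicle, 29.4% of aligned entries matched no gene, 32.5 to 34.6% matched several places and 0.527 to 0.728% were ambiguous.

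Gene names, classes and exon lengths came from GENCODE M21, which held 45229 of the 46078 gene identifiers, and 849 were left unnamed. CPM is the count over the sum of gene counts. The edgeR 4.0.16 quasi-likelihood test in R 4.3.3, with TMM scaling and Benjamini-Hochberg adjustment over all genes tested, contrasted vehicle with the mean of the 3 TCDD groups, and genes were called at an adjusted p of 0.05 and 1.5-fold. DESeq2 1.42.0 was an alternative. Library ratios used a prior count of 2 and genes with a mean of at least 50 counts. Library totals were compared by exact permutation (scipy 1.17.1, 220 arrangements). Counting intervals are 95% intervals. The test was checked on simulated data.

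Genes were named by rule: the 20 highest by CPM, the 10 highest per length among genes of at least 300 nucleotides of exon, the 3 highest of each RNA class, the leading and the zero members of each list, the 15 with the widest ratio between vehicle libraries, and the 10 largest rises and falls against TCDD among called genes with a mean of at least 50 counts. Other list members were named for their role, after their values were seen. The vehicle group, the 43 lists and the rule were chosen with earlier results of these data known. Replicate numbers follow the order of the samples and pair nothing. Whether each library came from 1 animal is not stated in the labels, so p-values measure the spread between these samples. Some genes that the rule or the lists would name are not reported here.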

Additional observations from a re-analysis of the deposited data

How the results depend on the processing

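No paired analysis was possible because the labels give no replicate numbers, and the numbers used here only name libraries. The protein-coding share was 93.7% with the 10 highest genes left out, against 82.3%. The share of genes over 2-fold between vehicle libraries was 12.3% at a minimum mean of 10 counts and 2.72% at 500, and 1.32 to 4.37% when 1 vehicle library was left out, lowest without replicate 1. Of the 146 genes called between vehicle and TCDD, 139 were among the 274 called by DESeq2 (105 higher and 169 lower in vehicle) and 144 among the 300 called with no filter on low counts (151 higher and 149 lower). With the sequencing index as a covariate 94 genes were called. With the 9 TCDD libraries as 1 group 2 were, Pof1b and Mir6236, which were named after their values were seen. Leaving out 1 library gave 59 to 351 calls, the lowest without vehicle replicate 2 or 3 and the highest without TCDD 3 µg/kg replicate 1. The difference in the share of entries aligned to several places was -0.389 points and lay between -0.786 and 0.303 when 1 vehicle library was left out, with the positive value without replicate 2. For the 20 genes named from the contrast, the call was kept in 313 of the alternatives and lost in 62, of which 20 were under the single TCDD group, and none changed sign. The cause of these changes was not tested. Genes near the floor of 0.135 to 0.168 CPM are limited by depth.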
